A study of Saccharomyces cerevisiae with 22 samples.

Results

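The 8 genes described here encode the main cytosolic chaperones of growing yeast cells: the Hsp70 pairs *SSA1* and *SSA2* and *SSB1* and *SSB2*, the Hsp90 pair *HSC82* and *HSP82*, and the J-proteins *SIS1* and *YDJ1*. They were taken from a list of systematic names and are 8 of the 6005 protein-coding genes among the 6696 genes counted. All 8 had counts in each of the 22 libraries, with a lowest count of 45 for *YDJ1* in the shallowest library, and all 8 were tested in every comparison. In the S288C assembly R64, the genome that sacCer3 denotes, *SSA1* (YAL005C) lies on chromosome I from 139503 to 141431, *SSA2* (YLL024C) on chromosome XII from 95566 to 97485, *SSB1* (YDL229W) on chromosome IV from 44065 to 45906 and *SSB2* (YNL209W) on chromosome XIV from 252059 to 253900. *HSC82* (YMR186W) lies on chromosome XIII from 632355 to 634472, *HSP82* (YPL240C) on chromosome XVI from 96496 to 98625, *SIS1* (YNL007C) on chromosome XIV from 618507 to 619565 and *YDJ1* (YNL064C) on chromosome XIV from 505868 to 507097. Each of these spans is annotated as a protein-coding gene, and the counts in WT files were made on its coding sequence.

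Hsp70 proteins bind unfolded segments of client proteins in a cycle of ATP hydrolysis that J-proteins stimulate, and Hsp90 acts on a narrower set of clients that Hsp70 hands over. The Ssa proteins work throughout the cytosol, whereas the Ssb proteins sit mostly on ribosomes and meet nascent chains. Ydj1 is the general J-protein of the Ssa proteins, and Sis1 is a second, essential J-protein. Within their pairs, *SSA2* and *HSC82* are known as the more steadily expressed copies. Genes known to respond to heat shock through the transcription factor Hsf1 include *SSA1*, *HSP82* and *SIS1*. *SSB1* and *SSB2* are known to be regulated together with ribosomal protein genes. The copies of a pair are nearly identical in sequence, so reads shared between copies could be lost or split by the counting, and values of single copies in the 3 pairs are uncertain to that extent.

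The study asked which mRNAs reach the vacuole by autophagy and how this relates to their ribosomes, using rapamycin, an inhibitor of TORC1 that induces autophagy. In the vacuole experiment, cells labelled *rny1*Δ (rny1Δ::natNT2, a deletion of the gene of the vacuolar RNase Rny1) or *rny1*Δ *atg2*Δ (also atg2Δ::kanMX6, a deletion of a gene needed for autophagosome formation) were growing in YPD (1 library per strain and fraction) or were treated with 0.2 µM rapamycin in YPD for 3 h (2 replicates per strain and fraction), and RNA-Seq was made from the total lysate and from vacuoles floated on Ficoll, 12 libraries in all. Both labels of this experiment carry the *RNY1* deletion, and it has no group without it. The sample labels give X2180-1a as the background of the mutants and the study's strain list gives X2180-1B. In WT X2180-1a cells, RNA-Seq and ribosome footprints were made from the same lysates of growing cells (2 replicates) and of cells after 1, 2 and 3 h of rapamycin (1 library each), 10 libraries in all.

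Library totals on genes were 9156333 to 22097523 counts in 11 of the 12 libraries from the mutants. Vacuole replicate 2 of rapamycin-treated *rny1*Δ *atg2*Δ cells held 535462 and stood apart in depth. The WT libraries held 10361721 to 14917164 (RNA-Seq) and 2657480 to 20413301 (footprints). *ATG2* had 851 to 1448 counts in the *rny1*Δ libraries and 0 to 79 in the *rny1*Δ *atg2*Δ libraries, whereas *RNY1* had 9 to 439 counts in all 12 libraries labelled *rny1*Δ. In WT RNA-Seq *RNY1* had 66 and 86 counts in growing cells and 1068, 1119 and 834 after 1, 2 and 3 h of rapamycin. Libraries are named as labelled. As a check of the fraction, the share of counts on mitochondrial genes was 0.784% and 0.888% in the growing total lysates and 0.0166% and 0.0159% in the matching vacuoles. After rapamycin it was 3.84% to 5.88% in the 4 total lysates, 0.292% and 0.351% in *rny1*Δ vacuoles and 0.846% and 1.24% in *rny1*Δ *atg2*Δ vacuoles, and its part in the vacuole results was not tested. Alignments left uncounted because they were not unique rose from 29.4% to 36.1% of all alignments in the 4 growing libraries to 47.4% to 60.8% in the 8 rapamycin libraries. The part of this shift in the values of the 3 pairs was not tested. Levels are in CPM, counts relative to the library total scaled by TMM within each of 3 tables (vacuole experiment, WT RNA-Seq, WT footprints). CPM from different ones of these 3 tables was not compared. For ribosome association, the 10 WT libraries were scaled together.

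In growing WT cells, mRNAs of the 4 Hsp70 genes stood far above the rest. Per kilobase of coding sequence, *SSB1* was at 4055 ± 102 CPM (SD, n = 2), *SSB2* at 3600 ± 36.0, *SSA2* at 3158 ± 370 and *SSA1* at 2575 ± 268. *HSC82* followed with 790 ± 71.8 CPM per kilobase, and *YDJ1* with 184 ± 12.7. *HSP82*, at 76.2 ± 7.68 CPM per kilobase, and *SIS1*, at 70.8 ± 5.51, overlapped between replicates and did not differ beyond their spread, whereas no other neighbours in this order overlapped. Of 5927 genes ranked by this measure, *SSB1* was at rank 97 and 85 in the 2 replicates and *SIS1* at rank 1550 and 1648. The 8 mRNAs together took 1.91% of the RNA-Seq counts in both growing WT libraries. In total lysates of growing cells, *HSC82* led the order with 2014 (*rny1*Δ) and 2159 CPM per kilobase (*rny1*Δ *atg2*Δ), next to *SSB1* with 2010 and 1994, and *SIS1* was again the lowest with 190 and 193.

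After rapamycin, the relative levels of *SSB1* and *SSB2* mRNA fell steeply in WT cells and those of the other 6 genes rose at 1 h. A change is called a rise or a fall where the adjusted p-value of edgeR's quasi-likelihood test was under 0.01. At 1 h, 6 of the 8 rose and 2 fell, where 28.2% of all 5927 genes tested rose and 29% fell. At 2 h, 5 of the 8 rose and 2 fell (26.2% and 26.9% of all genes), and at 3 h, 4 rose and 2 fell (26% and 29.2%). The median log2 change of the 8 genes was 0.77, 0.77 and 0.41 at 1, 2 and 3 h, and that of all genes was 0.01, 0.02 and -0.01. Since each time point is a single library, the test rests on the spread between the 2 growing libraries.

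*SSB1* mRNA was at 7479 and 7217 CPM in growing WT cells and at 175, 428 and 649 CPM after 1, 2 and 3 h. Its level fell 42.1-fold at 1 h (log2 change -5.39, SE 0.18, adjusted p = 5.7e-14) and stood 11.3-fold below the growing level at 3 h (-3.50, SE 0.16, adjusted p = 3.9e-12). *SSB2* followed the same course, from 6569 and 6477 CPM to 247, 593 and 854 CPM, with log2 changes of -4.72, -3.46 and -2.93. In both genes the lowest value was that at 1 h, and every rapamycin library lay below both growing ones. The 2 genes together fell from 0.959% and 1.02% of the library to 0.0484%, 0.122% and 0.181%.

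The Ssa mRNAs moved the other way. *SSA1* was at 5251 and 4530 CPM in growing cells and at 11151, 11854 and 8916 CPM after 1, 2 and 3 h, with log2 changes of 1.19, 1.28 and 0.87 (SE 0.14 each, adjusted p from 4.9e-07 to 4.4e-05). *SSA2* was at 6464 and 5474 CPM and then at 9801, 9634 and 7277 CPM. It rose at 1 h and 2 h (0.72, adjusted p = 3.1e-04, and 0.69, adjusted p = 4.7e-04), and its change of 0.29 at 3 h did not pass (adjusted p = 0.095). The Ssa pair took 0.800% and 0.743% of the library in growing cells and 2.40%, 2.57% and 1.95% after 1, 2 and 3 h.

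Of the Hsp90 genes, *HSP82* changed most: its mRNA was at 171 and 149 CPM in growing cells and at 1388, 1273 and 1230 CPM after 1, 2 and 3 h. These are 8.68-, 7.96- and 7.69-fold rises (log2 changes 3.12, 2.99 and 2.94, SE 0.13 each, adjusted p from 5.7e-13 to 2.2e-12). The level was reached at 1 h, and the 3 rapamycin libraries lay close together. *HSC82*, the more abundant copy, went from 1756 and 1545 CPM to 2939, 2991 and 2386 CPM, rises of 0.83, 0.86 and 0.53 on the log2 scale (adjusted p = 2.5e-05, 2e-05 and 0.0019). Both genes had all rapamycin libraries above the growing ones.

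The J-protein mRNAs differed in the size of their change from 1 h on. *SIS1* rose from 77 and 69 CPM to 380, 321 and 279 CPM (log2 changes 2.39, 2.14 and 1.94, SE 0.12 each, adjusted p from 6.9e-12 to 1.9e-10). *YDJ1* was at 232 and 211 CPM in growing cells and at 337, 264 and 223 CPM after 1, 2 and 3 h. It rose at 1 h (0.61, adjusted p = 1.9e-04), and its changes of 0.26 at 2 h (adjusted p = 0.067) and 0.01 at 3 h (adjusted p = 0.95) did not pass. At 3 h its value lay between those of the growing replicates. When all 10 WT libraries shared a fit, and so the larger spread of the footprints, *SSB1*, *SSB2* and *HSP82* passed at 1 h (adjusted p = 0.0047, 0.0058 and 0.0039), *HSP82* at 2 h (0.0075) and none of the 8 at 3 h.

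**Figure D1:**
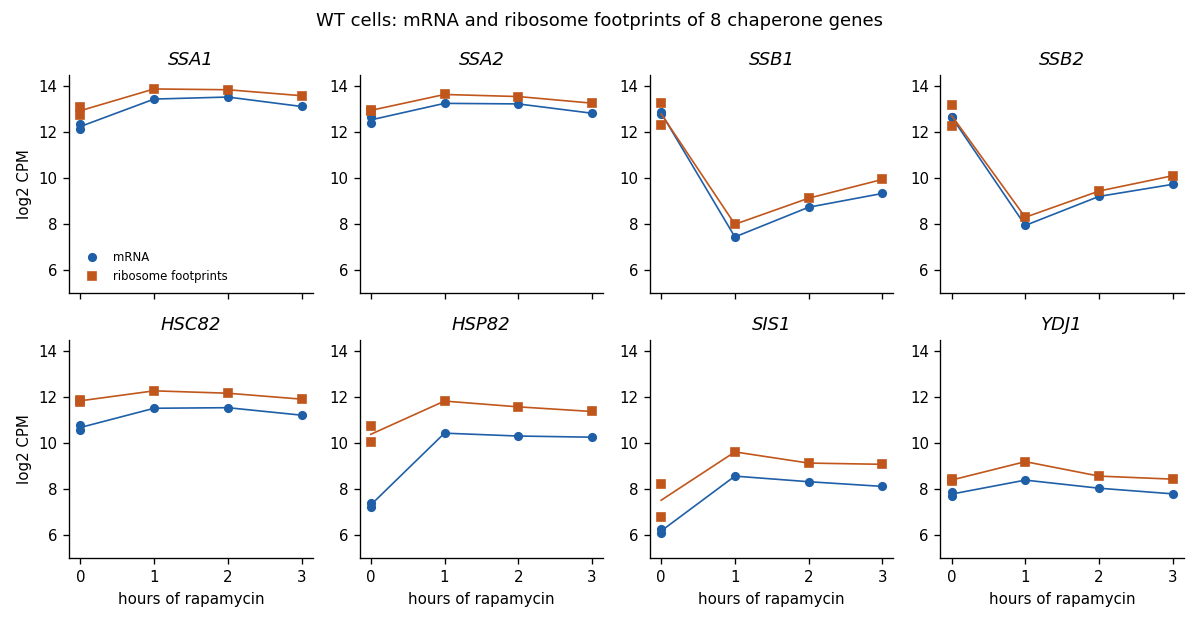
Log2 CPM of mRNA (circles) and ribosome footprints (squares) of the 8 genes in WT cells against hours of rapamycin, with 1 symbol per library and lines through the means. *SSB1* and *SSB2* drop at 1 h and climb partly back, and *HSP82* and *SIS1* mRNA climb by log2 changes of 3.12 and 2.39 at 1 h. The footprints follow the same courses. At 0 h there are 2 libraries of each kind. Footprints there spread wider than mRNA for *SSA1*, *SSB1*, *SSB2*, *HSP82* and *SIS1*, but not for *SSA2*, *HSC82* and *YDJ1*.

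In total lysates of the 2 mutant strains, 3 h of rapamycin gave another picture for part of the genes: *SSA2*, *HSC82* and *YDJ1* fell, together with *SSB1* and *SSB2*. In *rny1*Δ cells 3 of the 8 rose (*SSA1*, *HSP82* and *SIS1*) and 5 fell, where 33.2% of all 5753 genes tested rose and 36.2% fell. Of the 8, 2 rose (*SSA1* and *HSP82*) and 5 fell in *rny1*Δ *atg2*Δ cells (35.1% and 36.7% of all genes), and *SIS1* did not pass. With genes of at least 10 counts in every library, the calls of *SIS1* in *rny1*Δ cells (0.29, adjusted p = 0.029) and of *HSP82* in *rny1*Δ *atg2*Δ cells (0.41, adjusted p = 0.010) ended. The median change of the 8 was -1.43 and -1.75 on the log2 scale in the 2 strains, where that of all genes was -0.05 and -0.02. The share of the 8 mRNAs in the library went from 1.58% to 0.858% and 0.769% in *rny1*Δ cells and from 1.60% to 0.679% and 0.746% in *rny1*Δ *atg2*Δ cells, whereas in WT mRNA it went from 1.91% to 2.63% at 3 h. Bulk libraries do not tell a loss of an mRNA from a gain of others, and each growing group is 1 library.

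*SSB1* was at 3643 CPM in growing *rny1*Δ cells and at 236 and 201 CPM after rapamycin (log2 change -4.06, SE 0.16, adjusted p = 1.5e-13), and in *rny1*Δ *atg2*Δ cells it went from 3613 to 161 and 198 CPM (-4.33, SE 0.16, adjusted p = 5.5e-14). *SSB2* went from 3446 to 417 and 308 CPM in *rny1*Δ cells (-3.25) and from 3343 to 298 and 350 CPM in *rny1*Δ *atg2*Δ cells (-3.37). These falls had the direction and about the size of those in WT mRNA at 3 h, -3.50 for *SSB1* and -2.93 for *SSB2*. With the copies summed, the Ssb pair fell by 3.61 and 3.79 on the log2 scale in the 2 strains.

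*SSA1* rose from 1607 to 3354 and 3041 CPM in *rny1*Δ cells (0.99, SE 0.15, adjusted p = 7.1e-06) and from 1440 to 2683 and 2833 CPM in *rny1*Δ *atg2*Δ cells (0.94, SE 0.15, adjusted p = 1.2e-05). *SSA2* fell from 3126 to 796 and 598 CPM (-2.17, SE 0.17, adjusted p = 1.4e-09) and from 3237 to 407 and 498 CPM (-2.84, SE 0.17, adjusted p = 2.9e-11). The copies thus changed in opposite directions in both strains, whereas in WT mRNA both lay above the growing level at 3 h. With their counts summed, the Ssa pair was at -0.28 in *rny1*Δ cells (adjusted p = 0.090) and fell by 0.54 in *rny1*Δ *atg2*Δ cells (adjusted p = 0.0026), while in WT mRNA it rose by 0.58 at 3 h (adjusted p = 3.9e-04).

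The Hsp90 copies also parted. *HSP82* rose from 735 to 1254 and 1373 CPM in *rny1*Δ cells (0.84, SE 0.13, adjusted p = 2e-05) and from 715 to 1093 and 1061 CPM in *rny1*Δ *atg2*Δ cells (0.59, SE 0.13, adjusted p = 5.8e-04). *HSC82* fell from 4205 to 2324 and 2103 CPM (-0.93, SE 0.14, adjusted p = 1.2e-05) and from 4508 to 1965 and 2224 CPM (-1.11, SE 0.14, adjusted p = 1.2e-06). The summed pair fell by 0.49 (adjusted p = 0.0043) and by 0.72 (adjusted p = 1.3e-04), whereas in WT mRNA it rose by 1.00 at 3 h (adjusted p = 6.6e-11).

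*YDJ1*, which has no near-identical copy, fell from 413 to 118 and 97 CPM in *rny1*Δ cells (-1.94, SE 0.14, adjusted p = 5.2e-10) and from 428 to 73 and 90 CPM in *rny1*Δ *atg2*Δ cells (-2.40, SE 0.14, adjusted p = 2.1e-11). *SIS1* rose from 195 to 272 and 265 CPM in *rny1*Δ cells (0.46, SE 0.12, adjusted p = 0.0018). Its mRNA in *rny1*Δ *atg2*Δ cells was at 198 CPM in growing cells and at 182 and 198 CPM after rapamycin (-0.06, SE 0.12, adjusted p = 0.64). The WT and mutant values come from libraries made, aligned and counted in different ways, so strain and method cannot be told apart, and the difference between experiments was not tested.

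**Figure D2:**
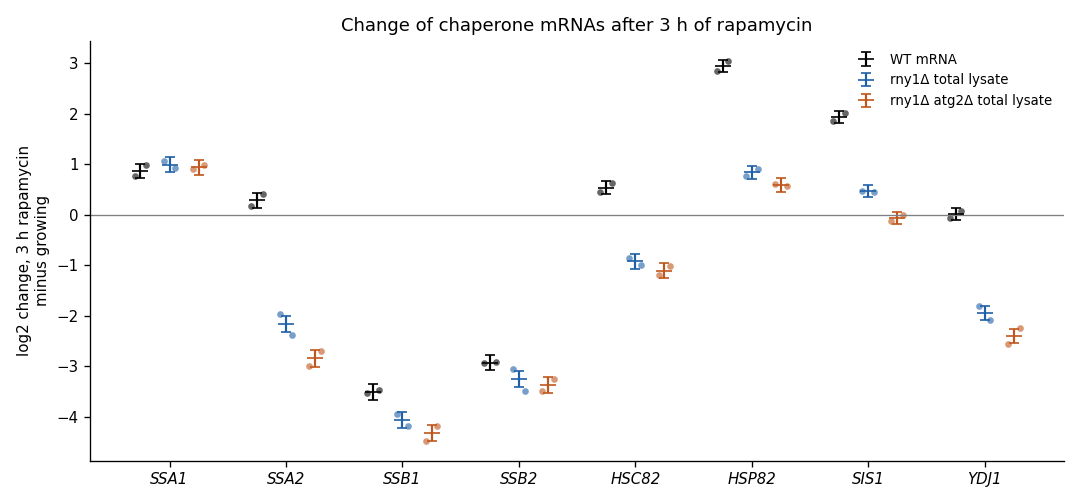
Log2 change of each mRNA after 3 h of rapamycin against growing cells, in WT RNA-Seq (black) and in total lysates of *rny1*Δ (blue) and *rny1*Δ *atg2*Δ cells (orange). Dashes and bars give the fitted change and its SE, and points give the 2 differences between single libraries (3 h against each growing replicate in WT, each rapamycin replicate against growing in the mutants). *SSA2*, *HSC82* and *YDJ1* lie far below 0 in both mutants and near or above 0 in WT.

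The 2 strains were compared with each other in total lysates after rapamycin. *SIS1* was higher in *rny1*Δ cells by 0.50 on the log2 scale (SE 0.10, adjusted p = 0.0029) and *SSA2* by 0.62 (SE 0.14, adjusted p = 0.0098). These 2 of 8 compare with 1.22% of all genes called higher in *rny1*Δ cells and 2.76% called lower. All 8 estimates were positive, from 0.08 for *HSC82* to 0.62 for *SSA2*, against a median of -0.01 over all genes. The call of *SIS1* ended without any 1 of the 4 total libraries (adjusted p from 0.011 to 0.067). That of *SSA2* ended without total replicate 1 of *rny1*Δ cells (0.071) and without any 1 of the 4 rapamycin libraries of *rny1*Δ *atg2*Δ cells (0.014 to 0.17), the shallow vacuole library among them (0.022).

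The split of counts within each pair does not depend on library scaling. In WT mRNA, *SSA1* held 44.8% and 45.3% of the Ssa pair in growing cells and 53.2%, 55.2% and 55.1% after 1, 2 and 3 h. In total lysates it held 33.9% in growing *rny1*Δ cells and 80.8% and 83.6% after rapamycin, and in *rny1*Δ *atg2*Δ cells 30.8% and then 86.8% and 85.1%. The shift was thus several times larger in the mutant experiment. Its counting dropped reads that fit both copies, and how WT counting treated such reads is not given. The part of this in the shift was not tested.

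*HSC82* held 91.1% and 91.2% of the Hsp90 pair in growing WT cells and 67.9%, 70.1% and 66.0% after 1, 2 and 3 h. In total lysates its share went from 85.1% to 65.0% and 60.5% in *rny1*Δ cells and from 86.3% to 64.3% and 67.7% in *rny1*Δ *atg2*Δ cells, so all 3 strains ended near the same split. *SSB1* held 53.2% and 52.7% of the Ssb pair in growing WT cells and 41.4%, 41.9% and 43.2% after rapamycin. In total lysates its share went from 51.4% to 36.1% and 39.4% (*rny1*Δ) and from 51.9% to 35.1% and 36.2% (*rny1*Δ *atg2*Δ). In footprints the split of the Hsp90 pair was flatter: *HSC82* held 78.3% and 67.6% in the growing libraries and 57.6%, 60.1% and 59.2% later. *SSA1* held 47.3% and 52.2% of the Ssa footprints in growing cells and then 54.2%, 55.1% and 55.6%, close to its mRNA shares after rapamycin.

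**Figure D3:**
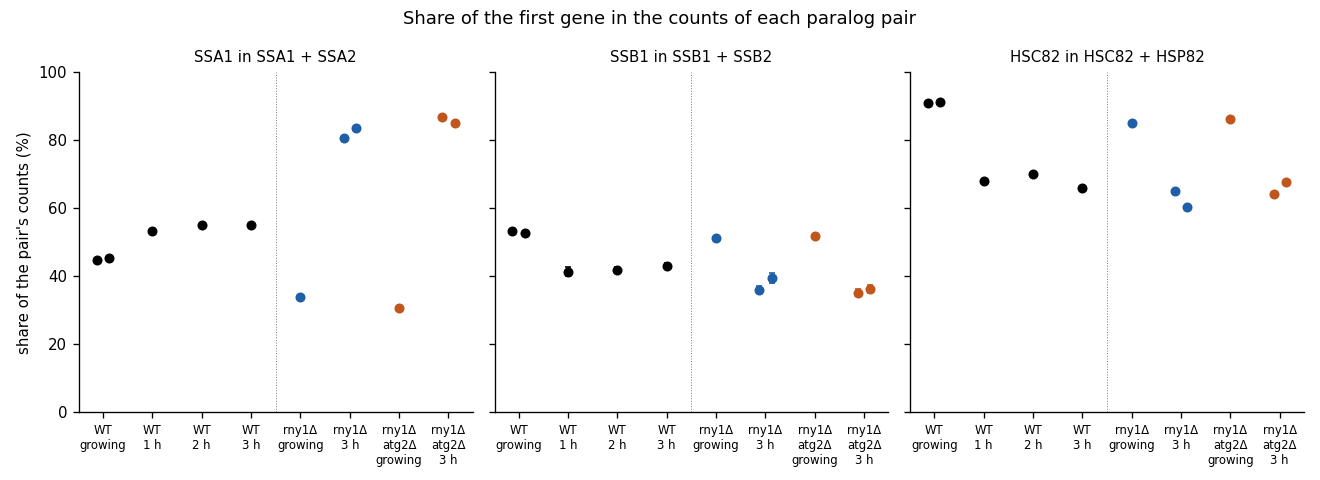
Share of *SSA1*, *SSB1* and *HSC82* in the counts of their pair (%) in WT RNA-Seq (black) and in total lysates of *rny1*Δ (blue) and *rny1*Δ *atg2*Δ cells (orange), 1 point per library with the exact binomial 95% interval, which covers counting error only and is mostly smaller than the point. *SSA1* goes from 33.9% to above 80% in *rny1*Δ cells but from about 45% to 55.1% in WT cells at 3 h.

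Vacuolar enrichment is the log2 vacuole/total ratio after rapamycin minus that in growing cells. In *rny1*Δ cells, *YDJ1*, *SSA2* and *SSA1* rose by this measure, which is a ratio, 3 of 8 where 19.3% of all genes rose and 16.3% fell. *YDJ1* and *SSA2* passed a log2 value of 1 as well, 2 of 8 where 12.1% of all genes did. The median of the 8 was 0.56, and that of all genes was 0.08. *SSA1* alone rose in *rny1*Δ *atg2*Δ cells, 1 of 8 where 4% of all genes rose and 2.62% fell, with a median of 0.58 against 0.03 over all genes.

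*YDJ1* had a vacuole/total ratio of -0.13 on the log2 scale in growing *rny1*Δ cells and of 1.20 and 1.37 in the rapamycin replicates, an enrichment of 1.41 (SE 0.20, adjusted p = 3.2e-05). In the vacuole fraction it went from 377 to 271 and 251 CPM while in the total lysate it went from 413 to 118 and 97 CPM. In *rny1*Δ *atg2*Δ cells the ratio was -0.11 in growing cells and 0.25 and 0.10 after rapamycin, an enrichment of 0.23 (SE 0.21, adjusted p = 0.52). The vacuole level of *YDJ1* was lower in the rapamycin libraries than in the growing library of each strain, in *rny1*Δ cells by less than the total level was.

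*SSA2* had ratios of 0.15 in growing *rny1*Δ cells and 1.04 and 1.40 after rapamycin (enrichment 1.05, SE 0.24, adjusted p = 0.0019). Those in *rny1*Δ *atg2*Δ cells were 0.07 and then 1.07 and 1.01 (0.95, SE 0.25, adjusted p = 0.015), and the difference between the strains was 0.10 (adjusted p = 0.85). *SSA1* was below the total level in vacuoles of growing cells of both strains (-0.52 and -0.60) and above it after rapamycin, at 0.27 and 0.37 in *rny1*Δ cells (enrichment 0.84, SE 0.20, adjusted p = 0.0022) and at 0.82 and 0.75 in *rny1*Δ *atg2*Δ cells (1.38, SE 0.20, adjusted p = 1.8e-04). The call in *rny1*Δ cells ended without vacuole replicate 1 (adjusted p = 0.029) or vacuole replicate 2 (0.017). In the vacuole fraction of *rny1*Δ cells itself, *SSA2* went down from 3464 to 1631 and 1572 CPM. *SSA1* went up there from 1123 to 4057 and 3937 CPM. With the Ssa copies summed, the enrichment was 0.57 in *rny1*Δ cells and did not pass (adjusted p = 0.033). In *rny1*Δ *atg2*Δ cells the summed pair rose by 0.93 (adjusted p = 0.0071).

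The Ssb mRNAs had estimates below 0 in *rny1*Δ cells and above 0 in *rny1*Δ *atg2*Δ cells, although that of *SSB2* in *rny1*Δ cells was 0.11 with a length correction. *SSB1* had a ratio of 0.48 in growing *rny1*Δ cells and of -0.05 and 0.13 after rapamycin (enrichment -0.44, SE 0.23, adjusted p = 0.11), and of 0.47 and then 0.98 and 0.99 in *rny1*Δ *atg2*Δ cells (0.48, SE 0.23, adjusted p = 0.19). *SSB2* had an enrichment of -0.03 in *rny1*Δ cells (SE 0.23, adjusted p = 0.91) and of 0.86 in *rny1*Δ *atg2*Δ cells (SE 0.24, adjusted p = 0.020). None of these passed. *HSC82* was at 0.62 and 0.32 in the 2 strains (adjusted p = 0.021 and 0.34), *HSP82* at 0.39 and 0.68 (0.084 and 0.020) and *SIS1* at 0.50 and 0.33 (0.018 and 0.22), each with an estimate above 0 and not past the threshold.

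**Figure D4:**
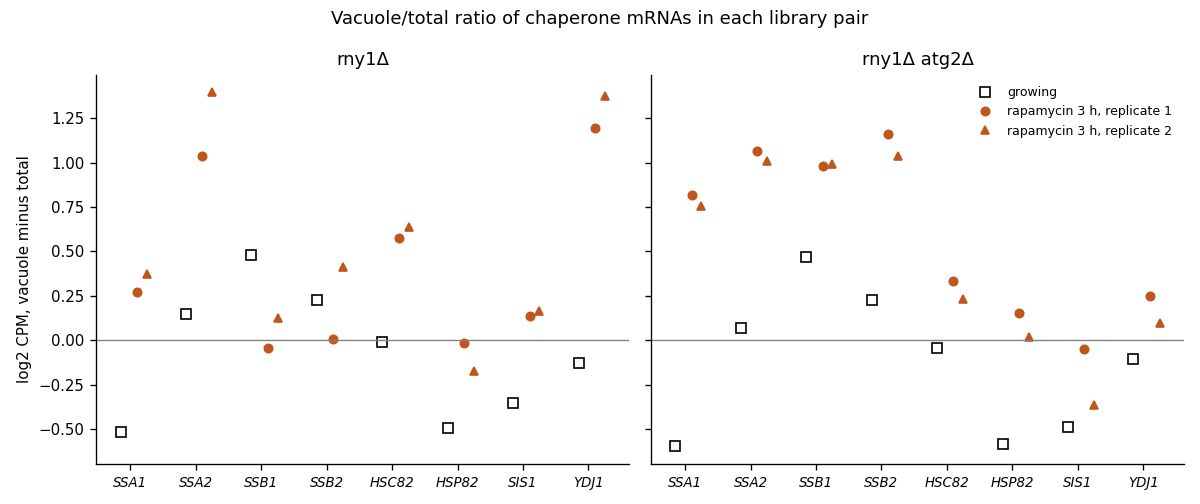
Log2 vacuole/total ratio (CPM) of each mRNA in *rny1*Δ (left) and *rny1*Δ *atg2*Δ cells (right), with open squares for the growing pair of libraries and filled symbols for the 2 rapamycin pairs. *YDJ1* reaches 1.20 and 1.37 in *rny1*Δ cells and 0.25 and 0.10 in *rny1*Δ *atg2*Δ cells, and *SSB1* and *SSB2* lie higher after rapamycin in *rny1*Δ *atg2*Δ cells.

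The difference of enrichment between the strains was tested itself. *YDJ1* differed, with an enrichment higher by 1.18 in *rny1*Δ cells (SE 0.29, adjusted p = 0.0057), 1 of 8 where 9.63% of all genes had a higher and 8.97% a lower enrichment in *rny1*Δ cells (554 and 516 genes, against 491 and 658 with DESeq2's size factors and 212 and 479 with its Wald test). *SSB1* (-0.92, SE 0.32, adjusted p = 0.037) and *SSB2* (-0.90, SE 0.33, adjusted p = 0.044) had lower estimates in *rny1*Δ cells without passing, and the remaining 5 lay between -0.55 for *SSA1* and 0.30 for *HSC82*. The *YDJ1* call ended under DESeq2's Wald test (1.09, adjusted p = 0.013) and with a length correction (1.03, adjusted p = 0.024). It also ended without vacuole replicate 1 of *rny1*Δ cells (adjusted p = 0.019), vacuole replicate 1 (0.070) or 2 (0.011) of *rny1*Δ *atg2*Δ cells or total replicate 2 of *rny1*Δ *atg2*Δ cells (0.015), with estimates from 1.01 to 1.34 over the 8 libraries left out in turn.

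After rapamycin alone, without division by the growing ratio, the vacuole and total libraries are 2 against 2. In *rny1*Δ cells *YDJ1* (1.28, SE 0.12, adjusted p = 6.9e-08), *SSA2* (1.20, SE 0.14, adjusted p = 1.1e-06) and *HSC82* (0.61, SE 0.12, adjusted p = 2.6e-04) were higher in the vacuole, 3 of 8 where 28.6% of all genes were higher and 27.3% lower. The *HSC82* call ended without vacuole replicate 1 (0.47, adjusted p = 0.015). After rapamycin in *rny1*Δ *atg2*Δ cells, *SSB2* (1.09), *SSA2* (1.02), *SSB1* (0.94) and *SSA1* (0.79) were higher in the vacuole, 4 of 8 where 11.9% of all genes were higher and 10% lower, with adjusted p-values of 1.8e-05 to 8e-05. Without the shallow vacuole library these 4 were at 1.04, 0.92, 0.82 and 0.78 and passed as before (adjusted p from 7.7e-04 to 0.0019). In that strain the relative level was thus higher in the vacuole fraction than in the total lysate for all 4 Hsp70 mRNAs. The values of *YDJ1* (0.12) and *SIS1* (-0.16) did not pass. CPM gives shares of a library and not amounts, and the paper could hardly detect mRNA in vacuoles of *atg2*Δ cells.

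The footprint changes in WT cells had the same signs as the mRNA changes in all 8 genes. For *YDJ1* at 3 h both lay near 0, at 0.01 in mRNA and 0.04 in footprints, as did the footprint change of *HSC82* (0.07). On the log2 scale, the growing replicates lay further apart in footprints than in mRNA for *SSA1*, *SSB1*, *SSB2*, *HSP82* and *SIS1*. For *SSA2*, *HSC82* and *YDJ1* they lay closer together in footprints. *SSB1* footprints were at 9925 and 5131 CPM in growing cells and at 256, 562 and 989 CPM after 1, 2 and 3 h (log2 changes -4.88, -3.74 and -2.93, adjusted p = 0.014, 0.049 and 0.14). *SSB2* footprints went from 9310 and 4980 CPM to 316, 697 and 1107 CPM (-4.50, -3.36 and -2.69, adjusted p = 0.017, 0.067 and 0.16). In both genes every rapamycin library lay below both growing ones, though the growing libraries themselves differed by a wide margin.

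*SIS1* footprints were at 111 and 303 CPM in growing cells and at 789, 563 and 543 CPM later (1.93, 1.44 and 1.39, adjusted p of at least 0.11), and *HSP82* footprints at 1057 and 1702 CPM and then at 3651, 3067 and 2668 CPM (1.40, 1.15 and 0.95, adjusted p of at least 0.22). *SSA1* footprints were at 6934 and 8898 CPM and then at 15129, 14770 and 12339 CPM, and those of *SSA2* at 7721 and 8134 CPM and then at 12805, 12030 and 9859 CPM. For these 4 genes the rapamycin libraries lay above both growing ones at each time. *HSC82* footprints went from 3818 and 3552 CPM to 4970, 4625 and 3867 CPM, and those of *YDJ1* from 343 and 332 CPM to 588, 380 and 347 CPM.

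By edgeR, 0 of the 8 footprint changes passed at any time, where 0.160% of 5625 genes rose and 5.92% fell at 1 h and 0% passed in either direction at 2 h and 3 h. At an unadjusted p under 0.05 there were 3, 2 and 2 of the 8 and 1441, 937 and 959 of all genes at 1, 2 and 3 h. DESeq2's Wald test called *SSB1* and *SSB2* lower at all 3 times (adjusted p from 1.5e-12 to 6.7e-04), and with genes of at least 10 counts in every library edgeR called both at 1 h (7.5e-04 and 0.0013) and *SSB1* at 2 h (0.0078).

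Ribosome association, the log2 footprint CPM minus the log2 mRNA CPM of a culture, was highest for *HSP82*. Its value was 2.88 and 3.73 in the growing cultures, above 99.8% and 99.4% of genes, and 1.46, 1.42 and 1.25 after 1, 2 and 3 h, above 97.9%, 97.9% and 96.1% of genes. Every rapamycin culture lay below both growing ones. The change was -1.88, -1.92 and -2.09 at the 3 times (SE 0.54 each) and did not pass (adjusted p = 0.92, 0.90 and 0.51), while with growing footprint replicate 1 left out it was -2.18, -2.22 and -2.39 and with replicate 2 left out -1.52, -1.55 and -1.72, each past the threshold (adjusted p of at most 5.5e-12). Those fits take the spread from the growing RNA-Seq pair alone. Footprints are shorter than RNA-Seq reads and the copies of the pair are near-identical. With *HSC82* and *HSP82* summed, the change was -0.66, -0.72 and -0.73 (adjusted p from 0.64 to 0.92).

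*HSC82* had a ribosome association of 1.38 and 1.42 in growing cultures and of 0.82, 0.78 and 0.83 later, again without overlap (changes -0.58, -0.62 and -0.57, adjusted p = 0.92, 0.90 and 0.70). *SSA1* did not overlap either, with 0.66 and 1.19 in growing cultures and 0.50, 0.47 and 0.60 later. Its changes by edgeR were -0.43, -0.46 and -0.33 (adjusted p = 0.95, 0.93 and 0.87). *YDJ1* stayed between 0.68 and 0.87 in all 5 cultures. *SIS1* was at 0.79 and 2.35 in the growing cultures and *SSB1* at 0.66 and -0.28, so the direction of their changes turned with the growing footprint library that was left out, from -1.17 to 0.25 for *SIS1* and from 0.91 to -0.07 for *SSB1* at 1 h. By edgeR 0 of the 8 changes passed at any time, and 0% of the 5936 genes tested did. At an unadjusted p under 0.05 there was 1 of the 8 at each time (*HSP82*) and 250, 252 and 570 of all genes at 1, 2 and 3 h, and DESeq2's Wald test called 0 of the 8.

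**Figure D5:**
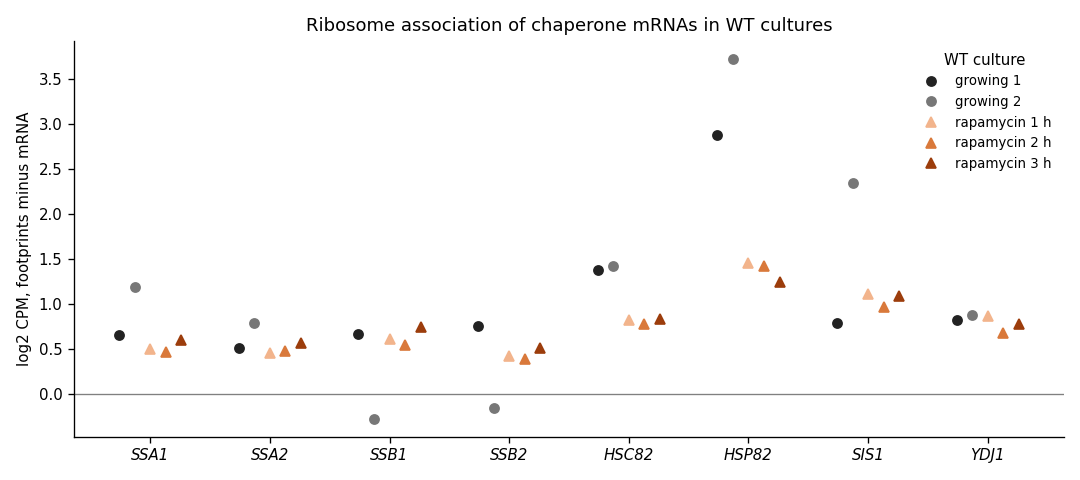
Ribosome association (log2 CPM of footprints minus that of mRNA) of the 8 mRNAs in each WT culture, with circles for the 2 growing cultures and triangles for 1, 2 and 3 h of rapamycin. *HSP82*, *HSC82* and *SSA1* lie lower in all rapamycin cultures than in both growing ones. The growing cultures of *SIS1*, *SSB1* and *SSB2* are far apart.

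The 8 genes work with other chaperones, of which 48 were listed by hand. In WT mRNA 16, 14 and 13 of the 48 rose and 25, 26 and 22 fell at 1, 2 and 3 h, and 12 rose and 26 fell in *rny1*Δ total lysates. Of all genes, 28.2%, 26.2% and 26% rose and 29%, 26.9% and 29.2% fell in WT, and 33.2% rose and 36.2% fell in *rny1*Δ total lysates. The heat-inducible Hsp70 genes *SSA3* and *SSA4* rose, *SSA4* by 5.06 in WT mRNA at 3 h and by 3.27 in *rny1*Δ total lysates. The disaggregase gene *HSP104* (4.34 and 2.96) and the small heat shock protein genes *HSP26* (6.09 and 6.10) and *HSP42* (4.65 and 2.52) rose likewise, as did *HSF1* (0.68 and 1.93).

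All 8 genes of the chaperonin, which folds actin and tubulin, fell in WT mRNA at each time and in both mutants, with medians of -1.02 in WT at 3 h, -1.78 in *rny1*Δ and -1.91 in *rny1*Δ *atg2*Δ cells. All 6 genes of prefoldin, which delivers substrates to the chaperonin, fell in the same comparisons (medians -0.93, -1.31 and -1.38). Of the 5 ribosome-associated genes, *ZUO1* and *SSZ1*, whose products form the J-protein complex of the Ssb proteins, and *EGD1* and *EGD2*, subunits of the nascent polypeptide-associated complex, fell in all of them, with -1.20 and -1.69 for *ZUO1* in WT at 3 h and in *rny1*Δ cells. *BTT1*, the remaining gene, did not pass in any of these comparisons (-0.46 in WT at 3 h and -0.29 in *rny1*Δ cells).

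The co-chaperones of Hsp90 moved in both directions. Of 12 genes, 3 rose and 2 fell in WT mRNA at 3 h, and 2 rose and 5 fell in *rny1*Δ total lysates. *STI1*, which links Hsp70 to Hsp90, rose by 1.68 in WT and was at 0.24 in *rny1*Δ cells, and *AHA1*, the activator of the Hsp90 ATPase, rose by 1.23 and 0.71. *CPR6*, a cyclophilin, rose by 1.01 in WT and was at -0.34 in *rny1*Δ cells, where it did not pass. *PPT1*, a phosphatase that binds Hsp90, fell most of the 48 in both (-2.89 and -3.38). Of the exchange factors, *SSE2* rose by 3.56 and 3.33 and *FES1* rose by 1.17 in WT and was at 0.12 in *rny1*Δ cells, whereas *SNL1* fell (-0.92 and -1.62) and *SSE1* was at 0.34 and -0.17 and did not pass.

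In vacuolar enrichment, 18 of the 48 rose and 6 fell in *rny1*Δ cells, and 1 rose and 1 fell in *rny1*Δ *atg2*Δ cells, where 19.3% and 16.3% (*rny1*Δ) and 4% and 2.62% (*rny1*Δ *atg2*Δ) of all genes did. In *rny1*Δ cells 5 of the 8 chaperonin genes, 4 of the 6 prefoldin genes and 5 of the 12 Hsp90 co-chaperone genes rose, with the highest values for *HCH1* (1.91) and *GIM4* (1.89). The 6 that fell were the J-protein genes *APJ1* (-1.33) and *SWA2* (-0.87), *HSF1* (-1.0), *HSP104* (-0.86), *SSE2* (-0.84) and *HSP42* (-0.80). In *rny1*Δ *atg2*Δ cells *SSA4* rose (0.80) and *HSF1* fell (-0.87).

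Over the 12 libraries of the vacuole experiment, the 8 mRNAs fell into patterns that crossed the pairs. *SSB1* and *SSB2* ran together (Pearson's r = 1.00 of log2 CPM), and *SSA2* ran with *HSC82* (0.99) and *YDJ1* (0.96). *SSA1* ran with *HSP82* (0.93) and against its own copy *SSA2* (-0.68), and *HSC82* against *HSP82* (-0.77). These correlations describe libraries that share strains, fractions and treatments and rest mainly on the step from growing to rapamycin. Among 3491 genes with a mean log2 CPM of at least 5, the most alike were *HSP150*, *LPD1* and *MIR1* for *SSA1* (0.97 to 0.98), *CYS3*, *ENO2* and *ADE4* for *SSA2* (0.99 to 1.00) and *CSE1*, *RPL4A* and *NOP58* for *SSB1* (1.00 each). For *SSB2* they were *PMT4*, *PHO84* and *KAP122* (1.00 each), for *HSC82* *LYS9*, *PGM1* and *HTS1* (0.99 each), for *HSP82* *YJL213W*, *SRY1* and *GLO4* (0.97 each), for *SIS1* *YNL208W*, *TRX2* and *RIB5* (0.93 to 0.94) and for *YDJ1* *TPI1*, *ERG10* and *ARO2* (0.99 to 1.00).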

How the data were processed

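RNA-Seq of 12 libraries of the vacuole experiment and RNA-Seq and footprints of 10 WT libraries were used. The authors deposited raw counts per gene, without normalization. For the vacuole experiment reads were depleted of rRNA (Bowtie2 2.1.0), aligned with TopHat2 2.0.9 and counted with HTSeq 0.6.1, and summary rows that name no gene, 62.6% to 79.5% of each such file, were left out. WT reads were aligned with STAR 2.7.0a and counted on coding sequences, footprints after removal of duplicates by molecular identifiers; the treatment of reads that fit several genes is not given in the sources used here. The column of coding length in codons was 10 below the annotated length for 5718 genes, the 8 members included.

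A fit took the protein-coding genes whose counts summed to at least 10, and these were tested by edgeR 4.0.16 (quasi-likelihood test, TMM, R 4.3.3) with Benjamini-Hochberg adjustment over all genes tested: 5753 in 12 vacuole libraries (8 groups, 4 residual degrees of freedom), 5927 in 5 WT RNA-Seq libraries (1), 5625 in 5 footprint libraries (1) and 5936 in all 10 (2). SE is the log2 change over the root of the F statistic. Log2 CPM used a prior count of 2. Alternatives were DESeq2 1.42.0, its size factors, filters, blocks, a length correction, summed pairs and libraries left out. WT RNA-Seq and footprints of a number came from the same lysate (their replicate differences correlated with 0.096 over genes), and the culture as a block changed no call of the 8 genes. The methods describe replicates as independent. The 8 genes are named throughout, and the listed 48 by group with examples. Members and lists were chosen with earlier results of these data known. A genome sequence was not used here, so no sequence is shown.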

Additional observations from a re-analysis of the deposited data

Results flagged for a closer look

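The vacuolar enrichment of *YDJ1* differed between the strains by 1.18 on the log2 scale (*rny1*Δ minus *rny1*Δ *atg2*Δ) by the interaction term of edgeR's quasi-likelihood test (adjusted p = 0.0057). Over the alternatives run, the estimate was 0.94 to 1.35. The call ended under some of them, DESeq2's Wald test and the length correction included, and each growing ratio comes from single libraries.

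The log2 changes of *SSA2* and *HSC82* had opposite signs at 3 h of rapamycin in WT cells and in both mutants, in every library: *SSA2* was at 0.29 in WT mRNA (not past the threshold) and at -2.17 and -2.84 in total lysates of the *rny1*Δ and the *rny1*Δ *atg2*Δ strain, and *HSC82* at 0.53, -0.93 and -1.11. The difference was not tested. In these mutant libraries after rapamycin, 56.5% to 59.8% of alignments were not unique and were not counted, against 31.3% and 29.4% in growing cells, and *YDJ1*, without a near-identical copy, stood at 0.01, -1.94 and -2.40.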

How the results depend on the processing

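Changes of mRNA in total lysates kept their direction and call under every alternative that counted the copies apart, except for *SIS1* in both strains and *HSP82* in *rny1*Δ *atg2*Δ cells. With copies summed, the Ssa pair was at -0.28 (*rny1*Δ) and -0.54 (*rny1*Δ *atg2*Δ) and the Hsp90 pair at -0.49 and -0.72, whereas *SSA1* and *HSP82* counted singly rose. Other counts of members past the threshold moved as follows. Vacuolar enrichment in *rny1*Δ cells (3 of 8) gave 5 with genes of at least 10 counts in every library, with the replicate block and with length correction and block together. For *rny1*Δ *atg2*Δ cells (1) it gave 4 with DESeq2's Wald test, with the replicate block and with length correction and block, and 1 to 4 with libraries left out. The difference between strains (1) gave 0 with DESeq2's Wald test and with length correction, 3 with the replicate block, alone or with length correction (*YDJ1* higher, *SSB1* and *SSB2* lower), and 0 to 2 with libraries left out. Vacuole against total after rapamycin in *rny1*Δ cells (3) gave 5 with length correction and block, and 2 to 5 with libraries left out. The strain difference in total lysates (2) gave 1 with genes of at least 10 counts in every library and with length correction, 4 with the replicate block, 5 with length correction and block, and 0 to 2 with libraries left out. The sources used here do not say that a replicate number of the vacuole experiment marks a shared culture. Replicate differences of total and vacuole libraries correlated with 0.191 (*rny1*Δ) and 0.051 (*rny1*Δ *atg2*Δ) over genes.

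In WT cells, the fit of all libraries together gave 3, 1 and 0 members for mRNA at 1, 2 and 3 h (8, 7 and 6 otherwise). For footprints, 0 at each time became 2 at each time with DESeq2's Wald test, 1 at 1 h with DESeq2's size factors, 2 and 1 at 1 h and 2 h with genes of at least 10 counts in every library or with no filter, and 2 at 1 h with all WT libraries in one fit. For ribosome association, leaving out a growing library gave 0 to 3, 0 to 3 and 0 to 4 members at 1, 2 and 3 h.

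Some values changed sign under an alternative, and none of these had passed. *SSB2* enrichment in *rny1*Δ cells was 0.11 with genes of at least 10 counts in every library, 0.11 with length correction and 0.12 with length correction and block, and -0.24 to 0.20 with libraries left out. *SIS1* in the strain difference was -0.11 and -0.14 with length correction, without and with block. *SSA2* in that difference was -0.088 to 0.32 with libraries left out. For vacuole against total in *rny1*Δ cells, *SSB1* was -0.033 with DESeq2's size factors and with its Wald test and -0.084 to 0.16 with libraries left out, *HSP82* was 0.023 with the stricter filter and 0.079 and 0.080 with length correction without and with block, *SIS1* was -0.011 with either length correction, and *SSB2* was -0.0090 to 0.43 with libraries left out. In *rny1*Δ *atg2*Δ cells, *HSP82* was -0.015 and -0.018 with length correction without and with block and -0.0043 to 0.18 with libraries left out, and *YDJ1* -0.028 to 0.28. In total lysates, *SIS1* in *rny1*Δ *atg2*Δ cells was -0.12 to 0.0036, and *SSB2* in the strain difference -0.072 to 0.36. For ribosome association with a growing library left out, *SSB1* was -0.067 to 0.91 at 1 h and -0.14 to 0.84 at 2 h, *SSB2* -0.34 to 0.58, -0.38 to 0.55 and -0.26 to 0.67 at 1, 2 and 3 h, *SIS1* -1.17 to 0.25, -1.32 to 0.10 and -1.19 to 0.23, *YDJ1* -0.043 to 0.079 at 1 h and *SSA2* -0.19 to 0.030 at 3 h. Over all alternatives, the WT change at 3 h was -0.060 to 0.11 for *YDJ1* mRNA and -0.012 to 0.062 for *YDJ1* footprints. That of *HSC82* footprints was -0.0083 to 0.093. Causes were not tested.

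Over all genes, DESeq2's Wald test turned the split of enrichment calls in *rny1*Δ cells from 1108 higher and 936 lower to 534 and 820, that of the enrichment difference between strains from 554 and 516 to 212 and 479 (118 and 210 with length correction), and that of the strain difference in total lysates from 70 and 159 to 63 and 53. For ribosome association the culture as a replicate block called 4, 1 and 1 genes lower at 1, 2 and 3 h, against 0 without it. Limits are the single growing libraries, the single library per WT time point, the spread of growing footprints, the shallow vacuole library and reads shared by near-identical copies.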
